A study of Mus musculus with 16 samples.

Results

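The genes described here are a list of 55 cell cycle and mitosis genes, followed in mouse striatum before and after an injection of ATP. A member was any row of the deposited count table whose gene symbol was on the list, and 53 of the 55 were found among the table's 19457 genes. Aurkb and Tk1 were not analysed here. All 53 passed the filter on low counts and were tested among 18813 genes.

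The libraries came from striatal RNA of wild-type (WT) and GS mice, where GS was taken to stand for the LRRK2 G2019S change that the series title names. LRRK2 is a large kinase, and G2019S is a change in its kinase domain that is linked to Parkinson's disease. The 8 groups, of 2 libraries each, were intact WT, intact GS, and WT and GS at 6 h, 3 d and 15 d after 0.8 µl of 500 mM ATP was injected into the striatum of 1 side of the brain. Age, sex, strain, whether the G2019S allele is a transgene or a change at the gene itself, and whether a library holds 1 animal or several are not stated in the sources. Injected groups were compared with intact striatum, so ATP, the added volume and the needle's path enter every injury comparison together and cannot be told apart. The count columns that are not GS are headed NT and were read as WT by elimination.

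Cells that divide pass from G1 through DNA replication to mitosis. D-type cyclins with Cdk4, then E-type cyclins with Cdk2, release E2F transcription factors, which switch on genes for replication origins, nucleotide supply and DNA synthesis. Later, the MuvB complex with B-Myb and FoxM1 switches on the genes of mitosis, and in resting cells the related DREAM complex holds both sets of genes down. In the adult striatum neurons do not divide, while microglia and oligodendrocyte precursors can, astrocytes can after injury, and the neighbouring subventricular zone holds neural progenitors.

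The 2 arms of this programme were compared by the words found in their promoter sequences. Entries in the RefSeq promoter table (GRCm38.p6, the build also called mm10) were found for 44 of the 53 members and for 13567 of the genes tested, each running from 250 bases before to 50 after a start. Both strands were searched for 3 motifs. These were the CHR element bound by MuvB (TTTGAA), the CCAAT box bound by NF-Y (CCAAT) and the E2F site (TTTCCCGC, TTTCGCGC, TTTGCCGC or TTTGGCGC). E2F words can overlap one another, as can CCAAT boxes. On the opposite strand the CHR reads TTCAAA and the CCAAT box ATTGG.

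Stretches before the start are printed for 7 members, in lower case with matches in capitals and read 5′ to 3′ along the gene's own strand. Cdk1, Mki67, Ube2c, Cdc20 and Kif11 are shown because a CHR and CCAAT boxes lie close together in them. Mcm6 is shown as a replication gene with E2F words, and Ccnb1 as a mitosis gene whose window held CCAAT boxes and no CHR word. The stretches are chr10:69352913-69353052 on the minus strand for Cdk1, chr7:135716464-135716579 on the minus strand for Mki67, chr2:164769694-164769928 on the plus strand for Ube2c and chr4:118437344-118437408 on the minus strand for Cdc20. The others are chr19:37376322-37376381 on the plus strand for Kif11, chr1:128359706-128359825 on the minus strand for Mcm6 and chr13:100786487-100786596 on the minus strand for Ccnb1.
Cdk1: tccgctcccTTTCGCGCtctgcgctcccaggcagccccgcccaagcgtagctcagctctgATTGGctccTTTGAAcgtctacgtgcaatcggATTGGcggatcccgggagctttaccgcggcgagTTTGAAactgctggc
Mki67: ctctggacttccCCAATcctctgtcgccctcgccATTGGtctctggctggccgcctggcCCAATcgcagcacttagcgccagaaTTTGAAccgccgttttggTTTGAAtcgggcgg
Ube2c: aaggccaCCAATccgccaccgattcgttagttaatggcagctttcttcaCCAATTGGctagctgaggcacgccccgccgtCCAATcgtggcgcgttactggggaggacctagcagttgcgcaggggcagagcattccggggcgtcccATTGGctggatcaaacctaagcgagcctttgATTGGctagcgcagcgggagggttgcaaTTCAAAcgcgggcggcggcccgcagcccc
Cdc20: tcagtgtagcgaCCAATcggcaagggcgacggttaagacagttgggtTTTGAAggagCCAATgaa
Kif11: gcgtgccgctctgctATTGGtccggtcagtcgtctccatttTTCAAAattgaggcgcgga
Mcm6: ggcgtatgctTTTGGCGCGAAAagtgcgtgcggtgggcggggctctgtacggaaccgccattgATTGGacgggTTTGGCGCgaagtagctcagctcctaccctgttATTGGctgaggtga
Ccnb1: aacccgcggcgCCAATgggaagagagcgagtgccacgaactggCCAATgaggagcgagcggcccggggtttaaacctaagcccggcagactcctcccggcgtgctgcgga

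In Cdk1, the kinase that drives entry into mitosis, the CHR words began at positions -71 and -15 from the start, each downstream of a CCAAT box, at -80 and -48, and an E2F word began at -131. Ube2c, which carries ubiquitin for the targets of the anaphase-promoting complex, held 1 CHR word at -29 and 6 CCAAT boxes, of which a pair overlapped. Mcm6, a subunit of the replicative helicase, held 3 E2F words, at -110, -106 and -47, the first and second overlapping. A match is a run of letters and no measured binding.

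Over the members, the share with each word differed by role. E2F words were present in 10 of 20 genes of G1 control and replication, in 1 of 24 mitosis genes (4.17%, Cdk1) and in 4.23% of all genes tested. The CHR word was present in 17 of 24 mitosis genes (70.8%), in 3 of 20 G1 and replication genes (15.0%) and in 15.1% of all genes. CCAAT boxes were present in 83.3% of the mitosis genes, 65.0% of the G1 and replication genes and 42.2% of all genes. Within the mitosis genes the median log2 fold change at 3 d in WT was 2.68 for the 17 with the CHR word and 3.23 for the 7 without it. Only the exact word was searched, so the 7 are not shown to lack the element, and its part in the responses was not tested. Among the G1 and replication genes the median was 2.14 for the 10 with an E2F word and 1.09 for the 10 without. In GS those medians were 2.61 and 1.12. Whether the E2F word bears on the size of the response was not tested.

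**Figure D1:**
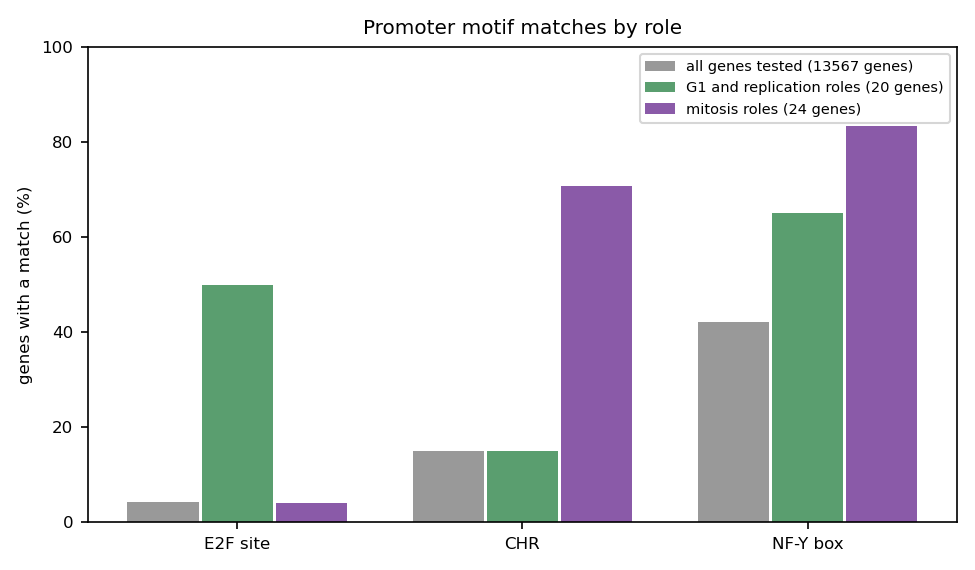
Share of genes (y axis, %) whose promoter window held each motif (x axis), for all genes tested that have an entry, for members with G1 and replication roles and for members with mitosis roles. E2F words stand out in the G1 and replication genes (10 of 20) and the CHR word in the mitosis genes (70.8%), and each is near the share of all genes in the other set (4.17% and 15.0%).

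Libraries held 49220578 to 63948110 counts, and levels are given as CPM, counts scaled to the size of each library after TMM normalisation. Tests are edgeR quasi-likelihood tests with Benjamini-Hochberg adjustment over all genes tested, called at an adjusted p under 0.05, and a value written a ± b is a log2 fold change with its standard error. The labels call the replicates biological, and p-values measure the spread between the 2 libraries of a group as pooled over all 8 groups. All 10 markers of striatal projection neurons were measured and summed to 6530 to 11300 CPM in every library. Cortical neuron markers were highest in WT intact replicate 1 (summed 210 CPM), WT 6 h replicate 2 (125) and WT 15 d replicate 1 (91.7) against 38.6 to 69.0 in the other libraries, so counts were also made without those 3. Ependymal and choroid markers were highest in GS intact replicate 1 (409 CPM) and ran from 56.1 to 308 in the others. The lowest raw count of any member was 6 reads, and 3 members had under 10 reads in some library, all of them genes with levels far under 1 CPM in intact tissue.

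At 3 d after ATP most of the cell cycle genes were higher than in intact striatum. In WT 48 of 53 members rose and none fell, with a median log2 fold change of 2.06, while 27.4% of all genes tested passed in either direction, 14.7% higher and 12.7% lower. In GS 50 of 53 rose and none fell, with a median of 2.70, against 35.1% of all genes in either direction, 18.6% higher and 16.4% lower. The median of all genes tested was -0.01 in both. Both libraries at 3 d lay above both intact libraries for 48 members in WT and 51 in GS. How many of all genes separate in this way was not counted, so these numbers have no baseline. The median fold change was larger for mitosis genes than for genes of G1 and replication. Of 27 mitosis genes 25 rose in WT and 27 in GS, with medians of 2.68 and 3.22, and of 26 G1 and replication genes 23 rose in each genotype, with medians of 1.45 and 1.99. In bulk tissue more cells of a dividing type and more RNA per cell cannot be told apart.

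Of the 48 WT calls 39 were kept whichever library was left out. The other 9 (Cdk4, E2f7, E2f8, Mcm7, Gins2, Tyms, Hells, Aurka and Plk1) were lost at least without WT 3 d replicate 2, the higher library of its pair. In GS 45 of 50 were kept, and Ccnd2, Cdk4, Mcm7, Melk and Anln were lost without 1 or more of the intact or 3 d GS libraries.

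**Figure D2:**
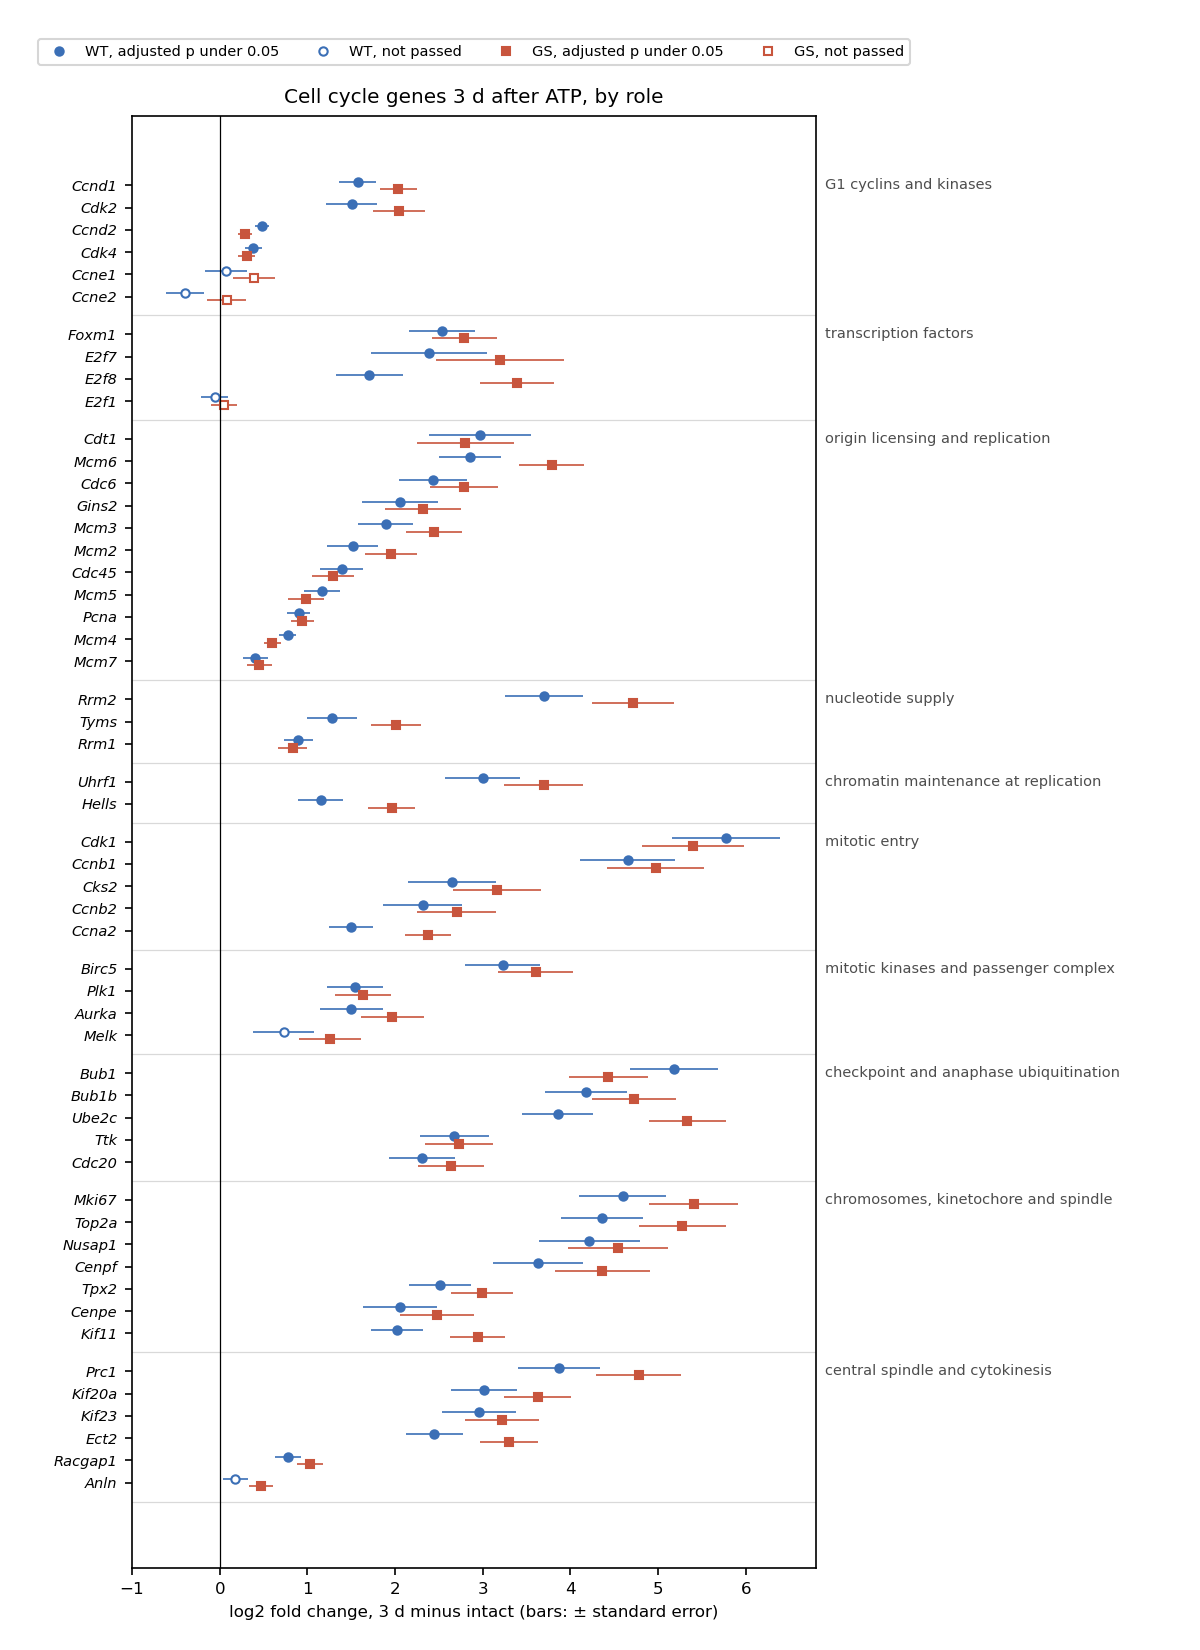
Log2 fold change at 3 d against intact striatum (x axis) for each of the 53 members (y axis, grouped by role), in WT (circles) and GS (squares), with bars of 1 standard error and filled symbols for an adjusted p under 0.05. Cdk1 in WT (5.77) and Mki67 in GS (5.41) lie farthest right. Ccne1, Ccne2 and E2f1 have open symbols in both genotypes, at 0.07, -0.4 and -0.06 in WT.

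Genes of chromosomes, kinetochores and the spindle were among those that rose most. All 7 passed in both genotypes, with median log2 fold changes of 3.63 in WT and 4.36 in GS. Mki67 (chr7:135689784-135716450) encodes the Ki-67 protein that coats mitotic chromosomes and is the usual marker of cycling cells. Its level was 0.641 and 2.22 CPM in intact WT libraries, 4.64 and 7.42 at 6 h, 19.4 and 49 at 3 d, and 11.6 and 14.8 at 15 d. GS libraries held 0.906 and 1.33, 4.10 and 4.13, 36.0 and 59.2, and 13 and 14.5 CPM at the same stages. In both genotypes every 3 d library lay above every other library of that genotype, and the 15 d libraries lay between 6 h and 3 d. The change at 3 d was 4.59 ± 0.494 in WT (24.1-fold, adjusted p = 3.57e-05) and 5.41 ± 0.510 in GS (42.4-fold, adjusted p = 8.74e-06).

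Top2a (chr11:98992947-99024199), the topoisomerase that untangles sister chromatids, followed the same course. WT libraries held 0.855 and 2.12 CPM when intact, 3.73 and 6.97 at 6 h, 18.5 and 42.4 at 3 d, and 11.9 and 14.9 at 15 d. The GS values were 0.821 and 1.18, 5.23 and 3.41, 29.5 and 48.3, and 12.1 and 13.7 CPM. At 3 d this was 4.36 ± 0.469 in WT (20.6-fold) and 5.28 ± 0.493 in GS (38.8-fold). Nusap1, Cenpf, Tpx2 and Cenpe, which act on spindle microtubules or kinetochores, rose by 4.22, 3.63, 2.51 and 2.06 in WT. The smallest change of the group in WT was in Kif11, the motor that separates the spindle poles. WT libraries held 1.51 and 1.97 CPM of it when intact, 2.49 and 3.57 at 6 h, 4.94 and 9.18 at 3 d, and 4.09 and 3.84 at 15 d. GS libraries held 0.975 and 1.39, 3.25 and 2.46, 7.83 and 10.3, and 4.19 and 3.46. Kif11 changed by 2.02 ± 0.299 in WT (adjusted p = 0.000310) and 2.94 ± 0.311 in GS at 3 d.

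All 5 genes of mitotic entry rose in both genotypes. Cdk1 (chr10:69335146-69352912) showed the largest change of any member in WT. Its WT libraries held 0.107 and 0.188 CPM when intact, 0.852 and 0.903 at 6 h, 3.79 and 12.4 at 3 d, and 1.93 and 3.66 at 15 d. In GS they held 0.308 and 0.137, 0.639 and 0.592, 7.31 and 11.6, and 3.10 and 3.64 CPM. The change at 3 d was 5.77 ± 0.620 in WT (adjusted p = 3.57e-05) and 5.4 ± 0.580 in GS (adjusted p = 1.65e-05), and it starts from intact libraries of 18 reads or fewer, so the fold is less certain than the rise.

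Ccnb1 (chr13:100778739-100786486) encodes cyclin B1, the mitotic partner of Cdk1. It stood at 0.214 and 0.394 CPM in intact WT tissue, 0.887 and 1.99 at 6 h, 4.18 and 11.1 at 3 d, and 1.77 and 2.62 at 15 d. GS values were 0.239 and 0.274, 1.11 and 1.38, 5.87 and 10.4, and 2.34 and 2.20 CPM. In GS the stages did not overlap and ran upward from intact through 6 h and 15 d to 3 d, and in WT they followed the same order with an overlap of 6 h and 15 d. At 3 d the change was 4.65 ± 0.540 in WT and 4.97 ± 0.549 in GS.

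Ccna2 encodes cyclin A2, which works in both S phase and mitosis, and it had the smallest WT change of the entry genes. WT libraries held 5.25 and 4.86 CPM when intact, 5.29 and 6.61 at 6 h, 9.56 and 19.0 at 3 d, and 7.42 and 7.83 at 15 d. GS libraries held 3.27 and 3.83, 5.02 and 4.40, 15.0 and 21.8, and 7.15 and 6.74. Its changes at 3 d were 1.5 ± 0.255 in WT and 2.37 ± 0.263 in GS. Ccna2 shares its locus with Exosc9, and reads of overlapping genes may not be separated, since no source here says whether counting used strand.

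Cks2, a small partner of Cdk1, stood at 0.196 and 0.695 CPM in intact WT, 0.835 and 0.866 at 6 h, 1.53 and 4.02 at 3 d, and 1.09 and 1.26 at 15 d. GS libraries held 0.462 and 0.393, 0.689 and 0.754, 2.94 and 4.76, and 1.95 and 1.30 CPM. Its change at 3 d was 2.65 ± 0.503 in WT and 3.16 ± 0.501 in GS. Ccnb2, the second B-type cyclin, rose by 2.31 and 2.70.

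The 5 members with roles in the spindle checkpoint or in anaphase ubiquitination (Bub1, Bub1b, Ttk, Cdc20 and Ube2c) rose in both genotypes, with medians of 3.85 and 4.43. None of them is a subunit of the anaphase ubiquitin ligase itself. Bub1 (chr2:127800197-127831859) is a checkpoint kinase at kinetochores. It stood at 0.142 and 0.113 CPM in intact WT tissue, 0.546 and 0.830 at 6 h, 2.81 and 6.62 at 3 d, and 1.88 and 1.63 at 15 d. GS libraries held 0.308 and 0.188, 0.656 and 0.502, 3.97 and 6.83, and 1.36 and 1.30 CPM. Its change of 5.18 ± 0.499 at 3 d in WT was the largest of the group, and GS gave 4.43 ± 0.450. Intact WT libraries held as few as 6 reads of Bub1.

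Cdc20, which activates the anaphase-promoting complex, showed the smallest WT change of the group, 2.31 ± 0.375 (2.64 ± 0.377 in GS). WT libraries held 0.659 and 1.28 CPM when intact, 1.24 and 1.5 at 6 h, 2.88 and 6.68 at 3 d, and 1.66 and 2.05 at 15 d. GS values were 0.804 and 0.992, 1.71 and 1.31, 4.91 and 6.28, and 2.04 and 2.49 CPM. Cdc20 overlaps Elovl1. Ube2c went from 0.321 and 0.319 CPM to 2.67 and 6.62 in WT and from 0.171 and 0.171 to 6.35 and 7.60 in GS, and the libraries of the genotypes overlapped at 3 d. Bub1b rose by 4.18 in WT and 4.73 in GS, and Ttk, the checkpoint kinase Mps1, by 2.68 and 2.73.

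Mitotic kinases and the passenger complex, which corrects chromosome attachment, gave 3 calls of 4 in WT and 4 of 4 in GS. Birc5, the passenger subunit survivin, had the largest change. WT libraries held 0.623 and 0.488 CPM when intact, 0.648 and 1.44 at 6 h, 3.27 and 7.16 at 3 d, and 1.32 and 1.46 at 15 d. GS libraries held 0.479 and 0.547, 0.869 and 0.897, 4.55 and 8.0, and 1.81 and 1.73. Birc5 changed by 3.23 ± 0.425 in WT and 3.61 ± 0.428 in GS at 3 d.

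Plk1, the polo kinase of mitotic entry and exit, moved less, by 1.55 ± 0.319 in WT and 1.63 ± 0.320 in GS. Its WT libraries held 1.66 and 1.73 CPM when intact, 2.90 and 3.57 at 6 h, 2.93 and 6.93 at 3 d, and 2.36 and 3.07 at 15 d, so the lower 3 d library was level with 6 h. GS held 1.88 and 1.35, 2.36 and 2.62, 4.55 and 5.48, and 2.69 and 2.81 CPM. Aurka, the centrosomal Aurora kinase, rose by 1.5 and 1.97. Melk, a kinase that peaks in mitosis, had the smallest change. It stood at 1.37 and 2.07 CPM in intact WT, 0.887 and 1.66 at 6 h, 1.99 and 3.69 at 3 d, and 1.99 and 1.26 at 15 d, and the 3 d and intact libraries overlapped (0.73 ± 0.347, adjusted p = 0.135). GS libraries held 1.08 and 1.23, 1.64 and 1.44, 2.33 and 3.20, and 1.14 and 1.12, and the 3 d change passed (1.26 ± 0.357, adjusted p = 0.0137).

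At the central spindle and cytokinesis 5 of 6 genes rose in WT and 6 of 6 in GS. Prc1, which bundles the midzone microtubules, led with 3.87 ± 0.468 in WT and 4.78 ± 0.487 in GS. WT libraries held 0.712 and 0.883 CPM when intact, 1.19 and 2.15 at 6 h, 5.73 and 17.6 at 3 d, and 3.68 and 4.82 at 15 d. GS libraries held 0.462 and 0.701, 1.26 and 1.44, 12.7 and 19.3, and 4.03 and 3.41. Every 3 d library of Prc1 lay above every other of its genotype. Kif20a, a midzone motor, stood at 0.623 and 0.638 CPM in intact WT, 1.04 and 1.37 at 6 h, 3.63 and 6.59 at 3 d, and 1.46 and 1.95 at 15 d. GS libraries held 0.427 and 0.599, 1.05 and 0.933, 4.88 and 7.84, and 1.21 and 2.27 CPM. It rose by 3.02 ± 0.378 and 3.62 ± 0.387 at 3 d, and its locus overlaps Brd8 and Cdc23. Kif23, Ect2 and Racgap1, which form and read the centralspindlin signal, rose by 2.96, 2.45 and 0.78 in WT.

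**Figure D3:**
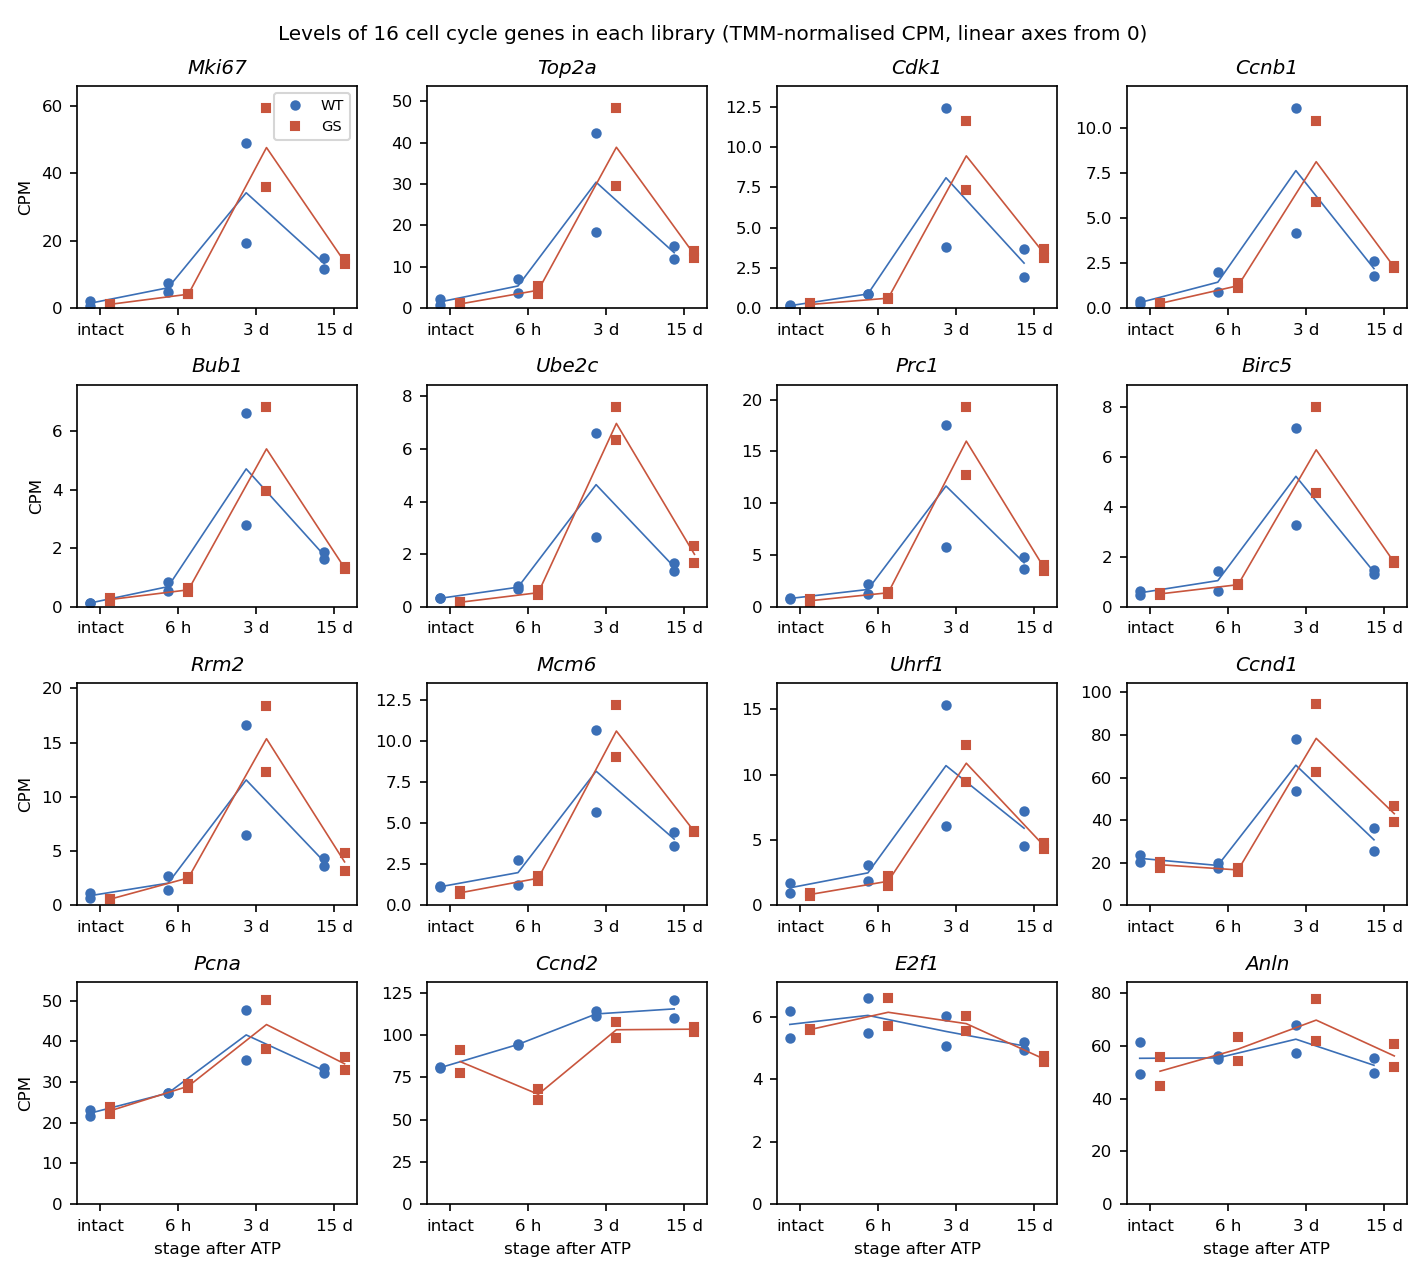
Level in CPM (y axes, linear from 0) of 16 members at each stage (x axis) in WT (circles) and GS (squares). Each symbol is 1 library, and lines join the means of 2. Mki67 reaches 19.4 and 49 CPM at 3 d in WT and 36.0 and 59.2 in GS and is lower in all 15 d libraries, while E2f1 stays between 4.56 and 6.62 throughout.

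All 11 genes of origin licensing and replication rose in both genotypes at 3 d, with medians of 1.52 in WT and 1.95 in GS. Cdt1, which loads the helicase onto origins, had the largest WT change, 2.96 ± 0.580 (adjusted p = 0.00201), and 2.80 ± 0.549 in GS. WT libraries held 0.196 and 0.526 CPM when intact, 0.477 and 0.921 at 6 h, 1.73 and 3.88 at 3 d, and 1.19 and 1.61 at 15 d. GS libraries held 0.769 and 0.274, 1.25 and 0.987, 3.13 and 4.18, and 1.09 and 2.47. All 3 d libraries of Cdt1 lay above the intact ones. Mcm6 followed (2.85 in WT and 3.79 in GS), and Cdc6, Gins2 and Mcm3 rose by 2.44, 2.06 and 1.89 in WT.

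The helicase subunits Mcm2 to Mcm7 form 1 ring, yet their fold changes differed widely. Mcm2 stood at 2.99 and 4.04 CPM in intact WT, 2.56 and 4.04 at 6 h, 6.89 and 13.2 at 3 d, and 4.64 and 5.55 at 15 d. GS libraries held 2.75 and 2.79, 4.53 and 4.43, 8.81 and 12.7, and 5.23 and 6.58. Its change at 3 d was 1.52 ± 0.291 in WT and 1.95 ± 0.296 in GS.

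Mcm5 (chr8:75109468-75128439) began higher and rose less, by 1.17 ± 0.208 and 0.98 ± 0.206. WT libraries held 5.34 and 5.46 CPM when intact, 6.68 and 7.98 at 6 h, 9.39 and 14.8 at 3 d, and 5.88 and 8.42 at 15 d. In GS they held 6.33 and 6.16, 7.23 and 8.51, 13 and 11.7, and 6.14 and 7.30. Mcm4 and Mcm7 rose by 0.77 and 0.41 in WT. Mcm7, the smallest change of the group, held 14.6 and 14.5 CPM in intact WT, 16.8 and 18.8 at 6 h, 15.9 and 22.7 at 3 d, and 15.3 and 18.1 at 15 d (3 d adjusted p = 0.0441). GS libraries held 14.9 and 14.9, 17.6 and 19.4, 19.1 and 21.6, and 16.1 and 15.6 (3 d adjusted p = 0.0216). In WT the 6 h, 3 d and 15 d libraries of Mcm7 overlapped one another. Its locus also holds Ap4m1 and Mir25.

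Divided by exon length, the intact level of Mcm7 was 4.92 CPM per kb in WT, against 0.259 for Mcm6. At 3 d the WT levels were 6.51 and 1.87 CPM per kb, so the ratio between these subunits narrowed and Mcm7 stayed the higher.

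Pcna, the sliding clamp of the replication fork, had the highest level per exon length of all members at 3 d, 27.4 CPM per kb in WT and 29.1 in GS. WT libraries held 23.1 and 21.6 CPM when intact, 27.4 and 27.2 at 6 h, 35.4 and 47.8 at 3 d, and 32.2 and 33.4 at 15 d. GS libraries held 23.8 and 22.1, 28.5 and 29.5, 38.2 and 50.1, and 32.9 and 36.1 CPM. The stages did not overlap in either genotype, and at 3 d the change was 0.90 ± 0.132 in WT and 0.94 ± 0.132 in GS. A copy of the gene, Pcna-ps2, could share its reads.

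All 3 measured genes of nucleotide supply rose. Rrm2, the S phase subunit of ribonucleotide reductase, stood at 0.641 and 1.15 CPM in intact WT, 1.43 and 2.67 at 6 h, 6.51 and 16.6 at 3 d, and 3.67 and 4.37 at 15 d. GS libraries held 0.598 and 0.564, 2.43 and 2.64, 12.3 and 18.4, and 3.17 and 4.85 CPM. The changes at 3 d were 3.70 ± 0.443 in WT (13-fold) and 4.72 ± 0.467 in GS (26.3-fold). The partner subunit Rrm1, which is not restricted to S phase, changed by 0.90 ± 0.166 in WT and 0.83 ± 0.165 in GS. WT libraries held 13.9 and 16 CPM when intact, 19.8 and 20.5 at 6 h, 22.7 and 33.0 at 3 d, and 20.9 and 21.4 at 15 d. GS libraries held 17.7 and 15.5, 22.2 and 19.1, 25.1 and 34.1, and 19.4 and 21.7. Tyms, which makes thymidylate, rose by 1.28 in WT and 2.01 in GS.

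Both genes that keep chromatin marks through replication rose. Uhrf1, which guides DNA methylation to new strands, stood at 0.962 and 1.73 CPM in intact WT, 1.86 and 3.12 at 6 h, 6.09 and 15.3 at 3 d, and 4.57 and 7.24 at 15 d. GS libraries held 0.957 and 0.718, 1.46 and 2.24, 9.46 and 12.3, and 4.28 and 4.78. Uhrf1 changed by 3.00 ± 0.428 in WT and 3.70 ± 0.449 in GS at 3 d. Hells, a chromatin remodeller, changed less, by 1.15 ± 0.260 and 1.96 ± 0.267. WT libraries held 2.72 and 2.29 CPM when intact, 2.80 and 2.87 at 6 h, 4.15 and 6.99 at 3 d, and 4.02 and 3.32 at 15 d. GS libraries held 1.78 and 1.73, 3.25 and 3.25, 5.09 and 8.61, and 3.93 and 4.04.

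Of the 4 transcription factors 3 rose at 3 d. Foxm1, the activator of mitotic genes, stood at 1.23 and 1.45 CPM in intact WT, 2.18 and 2.67 at 6 h, 4.53 and 11 at 3 d, and 3.25 and 4.56 at 15 d. GS libraries held 1.91 and 1.08, 2.21 and 1.74, 8.5 and 12.3, and 3.77 and 3.73. Foxm1 changed by 2.54 ± 0.377 and 2.79 ± 0.374. The repressive factors E2f7 and E2f8, which shut off E2F targets late in S phase, rose by 2.39 and 1.71 in WT and by 3.20 and 3.39 in GS. E2f1, an activator of entry into S phase, did not pass at any stage in either genotype. WT libraries held 6.20 and 5.33 CPM when intact, 5.49 and 6.62 at 6 h, 5.06 and 6.02 at 3 d, and 4.94 and 5.21 at 15 d. GS libraries held 5.62 and 5.58, 5.71 and 6.60, 5.56 and 6.02, and 4.56 and 4.74, and the change at 3 d was -0.06 ± 0.151 in WT (adjusted p = 0.817). E2f1 overlaps Necab3, and the share of its counts that Necab3 supplies is not known.

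Of the 6 G1 cyclins and kinases 4 were higher at 3 d in each genotype, with medians of 0.43 in WT and 0.35 in GS. Ccnd1 (chr7:144929931-144939831), the cyclin D1 that mitogens induce, had the largest WT change. WT libraries held 20.5 and 23.7 CPM when intact, 20.1 and 17.4 at 6 h, 53.6 and 78.0 at 3 d, and 25.4 and 36.2 at 15 d. GS libraries held 20.6 and 17.6, 17.4 and 15.9, 62.4 and 94.4, and 39.3 and 46.8. The change at 3 d was 1.58 ± 0.211 in WT (2.98-fold, adjusted p = 0.000150) and 2.04 ± 0.214 in GS (4.10-fold, adjusted p = 1.42e-05).

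Cdk4, the kinase partner of D-type cyclins, changed by 0.38 ± 0.0959 and 0.31 ± 0.0958. Its WT libraries held 34.8 and 35.7 CPM when intact, 36.2 and 36.1 at 6 h, 40.1 and 51.8 at 3 d, and 43.4 and 44.8 at 15 d. GS libraries held 36.3 and 34.9, 34.4 and 34.5, 46.1 and 42.0, and 43.4 and 46.7, so in GS its mean was highest at 15 d. Cdk2, the kinase of S phase, rose by 1.51 in WT and 2.04 in GS.

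Neither E-type cyclin passed as higher than intact at any stage. Ccne1 stood at 4.10 and 3.44 CPM in intact WT, 2.85 and 4.06 at 6 h, 3.41 and 4.51 at 3 d, and 3.11 and 2.12 at 15 d. GS libraries held 3.78 and 3.03, 3.8 and 3.18, 3.95 and 5.0, and 2.50 and 2.68 CPM. At 3 d Ccne1 changed by 0.07 ± 0.238 in WT (adjusted p = 0.854) and 0.39 ± 0.238 in GS (adjusted p = 0.220).

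Ccne2 was the only member that passed as lower than intact at 15 d. WT libraries held 5.49 and 6.37 CPM when intact, 5.92 and 7.0 at 6 h, 3.96 and 5.03 at 3 d, and 3.20 and 3.17 at 15 d. This gave -0.40 ± 0.220 at 3 d (adjusted p = 0.200) and -0.90 ± 0.225 at 15 d (adjusted p = 0.00973), a call lost without WT intact replicate 2 or WT 15 d replicate 2 and without the 3 WT libraries high in cortical markers. GS libraries held 4.10 and 4.60, 6.30 and 6.51, 3.74 and 5.48, and 4.01 and 2.56, with -0.40 ± 0.225 at 15 d (adjusted p = 0.178). In GS both 6 h libraries of Ccne2 lay above both intact ones, a rise that did not pass. Ccne2 overlaps Ints8.

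Anln encodes anillin, a scaffold of the cleavage furrow that is also a protein of myelinating oligodendrocytes. WT libraries held 49.3 and 61.4 CPM when intact, 56.1 and 54.9 at 6 h, 67.9 and 57.3 at 3 d, and 49.8 and 55.6 at 15 d. GS libraries held 45.0 and 55.9, 54.4 and 63.3, 61.8 and 77.9, and 60.6 and 51.9 CPM. The change at 3 d was 0.18 ± 0.140 in WT (adjusted p = 0.377) and 0.47 ± 0.141 in GS (adjusted p = 0.0180). Its intact WT level of 12 CPM per kb compares with 0.213 for Ect2, which acts at the same furrow.

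At 6 h few members passed, while the median change of the members was above that of all genes. In WT 4 members rose (Mki67, Top2a, Ccnb1 and Bub1) and none fell, against 4.09% of all genes in either direction, 2.54% higher and 1.55% lower. In GS 12 rose and 1 fell, against 13.8% in either direction, 7.47% higher and 6.37% lower. The 12 were Mki67, Top2a, Cenpf, Kif11, Kif23, Ect2, Ccnb1, Bub1b, Ube2c, Rrm2, Cdc45 and Hells, and Ccnd2 fell. Median changes were 0.61 and 0.69 over the members and -0.01 and 0.01 over all genes. Mitosis genes had medians of 0.93 in WT and 1.00 in GS, and G1 and replication genes 0.29 and 0.37. Both 6 h libraries lay above both intact ones for 37 members in WT and 43 in GS, and the share of all genes that do so was not counted. The changes in WT were 2.40 ± 0.557 for Bub1 (adjusted p = 0.0283), 2.23 ± 0.566 for Ccnb1, 2.09 ± 0.500 for Mki67 and 1.85 ± 0.476 for Top2a. In GS Rrm2 rose by 2.12 ± 0.475 (adjusted p = 0.00971) and Top2a by 2.11 ± 0.503.

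The 6 h calls depended on single libraries, and none of the 4 in WT and none of the 13 in GS was kept whichever library was left out. The WT count was 0 without WT intact replicate 1 or WT 6 h replicate 2, 10 without either WT 3 d library, and 2 without any 1 of WT intact replicate 2, WT 6 h replicate 1 and the intact, 6 h and 15 d GS libraries. The GS count was 2 without GS intact replicate 1, 1 without GS intact replicate 2 or GS 6 h replicate 1, 5 without GS 6 h replicate 2 and 21 without WT 3 d replicate 2.

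From 6 h to 3 d 45 members rose in WT and 46 in GS, and none fell. Of all genes 30.3% and 39.1% passed in either direction, with 15.9% and 19.9% higher and 14.3% and 19.2% lower. The median steps were 1.68 and 1.96 on the log2 scale, with the largest in Cdk1 (3.21 in WT and 3.93 in GS). Ccne1, Ccne2, E2f1, Mcm7, Cdc45 and Anln passed in neither genotype. The WT count was 29 without WT 6 h replicate 1 and 26 without WT 3 d replicate 2.

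By 15 d most members were still above intact and below 3 d. Against intact striatum 32 rose and 1 fell in WT, with a median of 1.14, while 25.4% of all genes passed in either direction, 14.2% higher and 11.2% lower. In GS 38 rose and none fell, with a median of 1.56, against 37.1% in either direction, 19.4% higher and 17.6% lower. Mki67 was still up by 3.22 ± 0.490 in WT (adjusted p = 0.000385) and 3.62 ± 0.501 in GS (adjusted p = 8.46e-05). Cdk1 was up by 4.23 ± 0.639 and 3.91 ± 0.586, and Ccnb1 by 2.85 ± 0.553 and 3.13 ± 0.559. Of the mitosis genes 17 of 27 rose in WT and 20 in GS, and of the G1 and replication genes 15 of 26 and 18. Ccnd1 passed in GS (1.17 ± 0.212, adjusted p = 0.000631) and not in WT (0.48 ± 0.211, adjusted p = 0.111). The difference between those responses was 0.69 ± 0.298 (95% interval 0.06 to 1.33, unadjusted p = 0.0349, adjusted p = 0.881). The WT count of 33 was 16 without WT intact replicate 1, 18 without WT 15 d replicate 2 and 15 without the 3 WT libraries high in cortical markers.

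Between 3 d and 15 d no member rose. In WT 10 fell, against 3.20% of all genes in either direction and 1.57% lower, and in GS 21 fell, against 2.10% and 1.02%. The 10 in WT were Ccnd1, Rrm2, Ccnb1, Birc5, Bub1, Cdc20, Ube2c, Tpx2, Kif20a and Ect2. Median steps were -0.98 in WT and -1.24 in GS, and both 15 d libraries lay below both 3 d libraries for 39 and 48 members. Such separation was not counted over all genes. Mitosis genes had median steps of -1.32 and -1.47, and G1 and replication genes of -0.61 and -0.78. Birc5 fell most in WT (-1.91 ± 0.385, adjusted p = 0.0180), and Prc1 in GS (-2.10 ± 0.404, adjusted p = 0.0197). Mki67 passed in GS (-1.79 ± 0.401, adjusted p = 0.0361) and not in WT (-1.37 ± 0.399, adjusted p = 0.0739).

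No call of this step was kept whichever library was left out. The WT count was 26 without WT 3 d replicate 1, 1 without WT 3 d replicate 2 or WT 15 d replicate 2, 0 without WT 15 d replicate 1 and 5 or 6 without any 1 of the other libraries save the intact WT and the 3 d GS ones. The GS count was 33 without either WT 3 d library, 10 and 11 without GS 6 h replicate 1 and 2, and 0 without GS 3 d replicate 2 or either GS 15 d library. Highest group means were at 3 d for 50 members in WT, all but Ccnd2, Ccne2 and E2f1, and for 49 in GS, all but those and Cdk4.

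**Figure D4:**
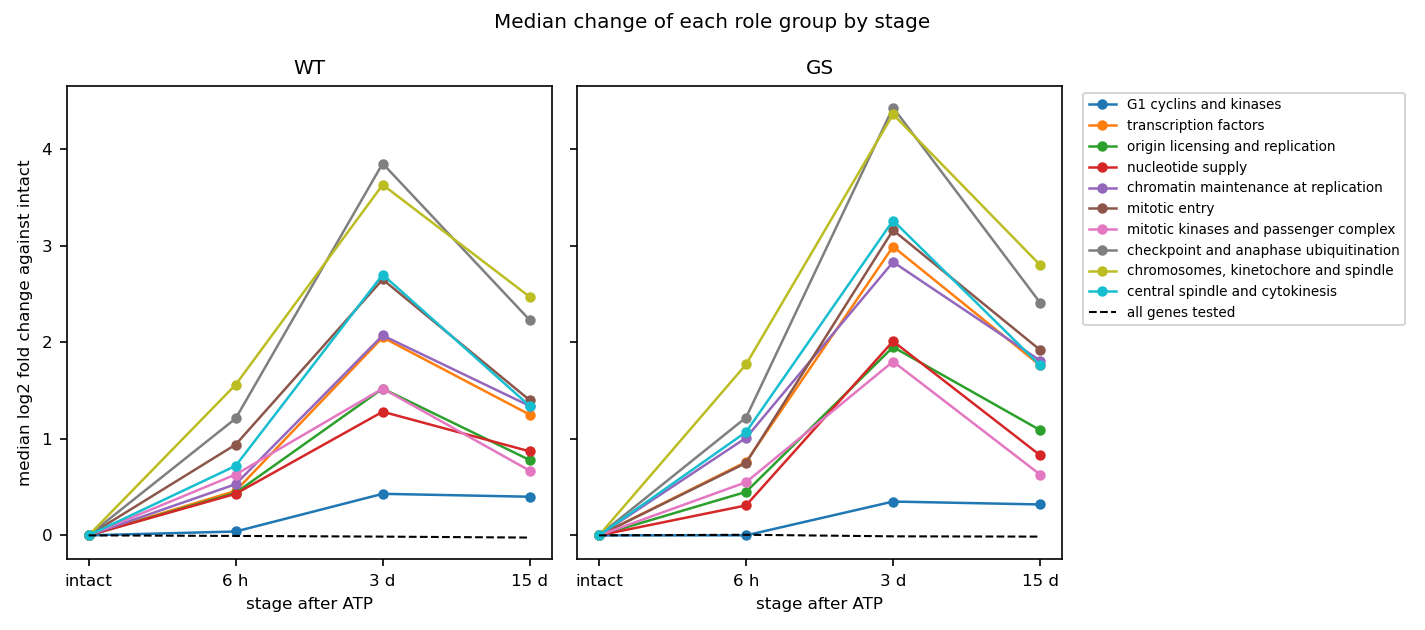
Median log2 fold change against intact striatum (y axis) of each role group at 6 h, 3 d and 15 d (x axis, with intact set to 0), in WT (left) and GS (right), with the dashed line for all genes tested. The checkpoint and the chromosome and spindle groups peak highest (3.85 and 3.63 in WT, 4.43 and 4.36 in GS) and the G1 cyclins and kinases lowest (0.43 and 0.35), while all genes stay near 0.

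Genes outside the members were taken from 6 lists of the wider cell cycle network, chosen with earlier results of these data known. Their counts at 3 d are read against the shares of all genes tested, which were 14.7% higher and 12.7% lower in WT and 18.6% higher and 16.4% lower in GS. Of 40 other mitosis genes 30 rose and 1 fell in WT at 3 d (median 1.78), and 36 rose and 1 fell in GS (median 1.82). The largest WT changes were in Ncapg, a condensin subunit (4.62 ± 0.426), and Knl1, a kinetochore scaffold (4.32 ± 0.497), and the gene that fell was Cit, the citron kinase, which neurons also express (-0.22, adjusted p = 0.00936). Of 34 other replication genes 8 rose and 1 fell in WT (median 0.23), and 14 and 1 in GS (median 0.31). In WT the share called in either direction was near the 27.4% of all genes tested. Mcm10, which helps start the fork, changed by 2.40 ± 0.529 in WT and Dbf4, the activator of the Cdc7 kinase, by 1.74, and the gene that fell was the origin subunit Orc3 (-0.29, adjusted p = 0.0224).

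Of 13 other cyclins, kinases and their regulators 10 rose in each genotype at 3 d, led in WT by Cks1b (2.06 ± 0.348) and the checkpoint kinase Chek2 (2.02). Of 16 other E2F, DREAM and Myb factors 4 rose and 1 fell in WT, and 5 rose in GS, again near the shares of all genes in either direction (27.4% and 35.1%). In WT Mybl1 rose by 0.93 and E2f3 by 0.42, and Tfdp2, a partner of E2F proteins, fell by 0.25. Of 11 quiescence and antiproliferative genes 6 rose in WT and 4 in GS, with Gas2l3 (1.85) and Btg2 (0.97) first in WT. Gas2l3 sits in this list by its name, though its product binds the midzone of dividing cells.

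Of 10 CDK inhibitors and pocket proteins 6 rose in WT at 3 d and none fell, against 14.7% of all genes higher and 12.7% lower. In GS 6 rose, against 18.6%, and 1 fell, the Cdk4 and Cdk6 inhibitor Cdkn2d (-0.41 ± 0.0832, adjusted p = 0.00152). Cdkn2c, an inhibitor of Cdk4 and Cdk6, went from 0.534 and 1.26 CPM to 3.31 and 7.71 in WT (2.63 ± 0.412), and Rbl1, the pocket protein p107 of the DREAM complex, from 2.03 and 1.28 to 4.35 and 8.31 (1.94 ± 0.330).

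Cdkn1a, chosen after its values were seen, differed from the members in timing. It encodes p21, a stress- and p53-responsive inhibitor of CDKs. WT libraries held 11.5 and 12.3 CPM when intact, 44.3 and 50 at 6 h, 36.6 and 25.9 at 3 d, and 11.3 and 16 at 15 d. GS libraries held 11.6 and 14.0, 65.9 and 72.5, 24.6 and 28.4, and 15.0 and 15.2. Its highest libraries were at 6 h, before the peak of the members, and it rose by 1.98 ± 0.170 in WT (adjusted p = 0.000194) and 2.43 ± 0.171 in GS (adjusted p = 6.71e-06) at that stage.

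Markers of several cell types moved over the same stages. Their counts at 3 d are read against 14.7% of all genes tested higher and 12.7% lower in WT. In GS those shares were 18.6% and 16.4%. Microglial markers (8 of 8 measured) summed to 415 to 440 CPM in intact libraries, 306 to 340 at 6 h, 844 to 1540 at 3 d and 1040 to 2150 at 15 d. At 3 d 7 of 8 rose in WT and 8 of 8 in GS, Csf1r by 1.13 ± 0.194 and 1.37 ± 0.194 and Aif1 by 1.27 in GS. Aif1 was the marker that did not pass in WT (0.59, adjusted p = 0.0610). Within each genotype the microglial sum had its highest library at 15 d, whereas the summed chromosome and spindle genes were 66.2 and 155 CPM at 3 d and 42.1 and 52.0 at 15 d in WT, and 109 and 175 then 45.6 and 50.2 in GS.

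Of 9 monocyte and macrophage markers 5 were measured, without Ccr2, the first listed. They summed to 8.73 to 11.3 CPM in intact and 6 h libraries, 47.3 to 155 at 3 d and 133 to 477 at 15 d. Lyz2, which activated microglia also express, made most of this, with 32.5 and 74.6 CPM at 3 d in WT and 80.2 and 140 in GS, and 0 of 7 neutrophil markers and 1 of 8 lymphocyte markers (Cd4) were in the table.

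Markers of oligodendrocyte precursors (8 of 8) summed to 334 to 364 CPM in intact libraries, 272 to 306 at 6 h, 293 to 414 at 3 d and 347 to 452 at 15 d, with 0 of 8 called at 3 d in WT and 2 higher in GS. Those counts were near or below the shares of all genes. Astrocyte markers (8 of 8) summed to 4320 to 4500 CPM in intact libraries and 5660 to 7260 at 3 d, with 5 of 8 higher in WT and 7 of 8 in GS. Within that sum Gfap, named after its values were seen, went from 27.2 and 32.8 CPM to 899 and 1120 in WT (5.08 ± 0.248), while Slc1a2 held 3320 and 3220 and then 3410 and 3270. Subventricular markers (10 of 10) summed to 309 to 373 CPM over all libraries, and at 3 d 5 rose and 2 fell in WT. At 6 h erythrocyte markers summed to 27.7 to 58.9 CPM, against 3.34 to 5.82 in intact libraries. Markers of striatal projection neurons (10 of 10) summed to 8540 to 11300 CPM in intact libraries and 7100 to 8600 at 3 d, with 1 lower in WT and 8 lower in GS. That WT count was near the share of all genes lower. Endothelial markers (7 of 7) summed to 88.0 to 109 CPM in intact WT and 111 to 136 at 3 d. In GS they summed to 118 to 119 and then 121 to 168. Fibroblast and pericyte markers (8 of 8) summed to 90.1 to 91.2 CPM in intact WT and 105 to 127 at 3 d. In GS these held 103 and then 126 to 185. Oligodendrocyte markers (6 of 6) summed to 6880 to 6960 CPM in intact WT and 6130 to 6750 at 3 d. GS libraries held 6940 to 7220 and then 7650 to 8140. The part of any of these cells in the cell cycle changes was not tested.

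**Figure D5:**
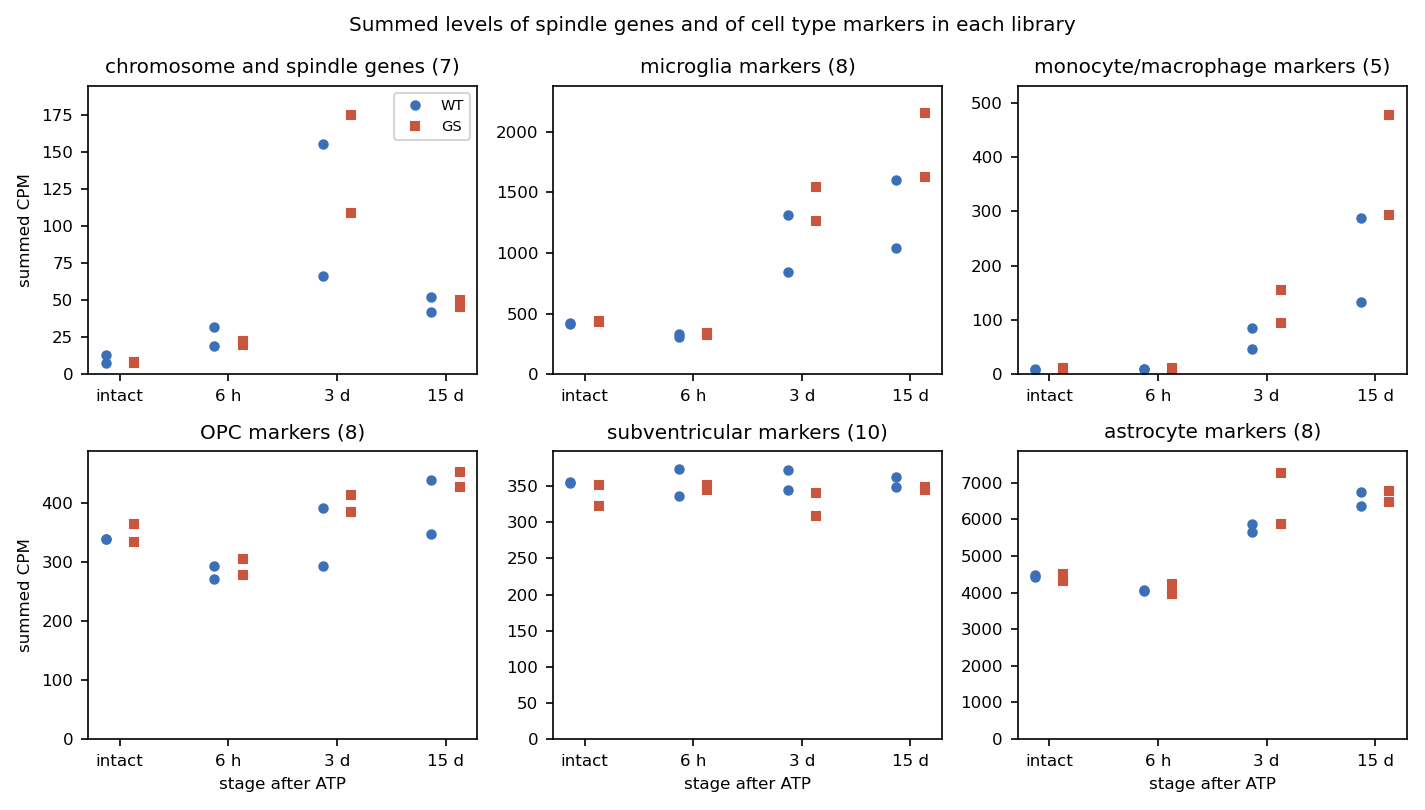
Summed level in CPM (y axes, from 0) of the 7 chromosome and spindle genes and of 5 sets of cell type markers at each stage (x axis). Each symbol is 1 library of WT (circles) or GS (squares). The spindle genes are highest at 3 d (66.2 to 175 CPM), whereas the microglial sum reaches 844 to 1540 at 3 d and 1040 to 2150 at 15 d.

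Between genotypes no member passed in any comparison. The counts were 0 at every stage, for the average over stages and for the interaction at each time, against 0 to 3 of all 18813 genes, that is 0.0159% in intact tissue, 0.00532% at 6 h and at 15 d, and 0.0106% at 3 d and for the average. The interactions gave 0.0106% at 6 h and 0% at 3 d and 15 d. At an unadjusted p under 0.05 the numbers of members were 1 in intact tissue (E2f8), 2 at 6 h (Ccnd2 and Cdc6), 0 at 3 d, 1 at 15 d (Ccnd1) and 1 for the average (Ccnd2). The interactions gave 2 at 6 h (Ccnd2 and E2f8), 5 at 3 d (E2f8, Hells, Ccna2, Ube2c and Kif11) and 1 at 15 d (Ccnd1). The shares of all genes at that unadjusted threshold were not counted, so these members are not shown to differ between genotypes. limma-voom called 0 members in all 8, and DESeq2 called 1 at 6 h, 1 for the average and 1 for the 6 h interaction, Ccnd2 each time. These injury comparisons share their intact libraries within a genotype, and each response is given side by side.

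At 3 d 49 of 53 members had a higher estimate in GS, with a median difference of 0.22 on the log2 scale, and none passed. All members were measured in the same 4 libraries, so they are not separate observations. The share of all genes with a higher estimate in GS is not given here. The difference was 0.47 ± 0.385 for Mki67 (95% interval -0.35 to 1.30), 0.22 ± 0.417 for Cdk1 (-0.67 to 1.11) and 0.08 ± 0.129 for Pcna (-0.19 to 0.36). WT 3 d replicate 1 was the lowest of the 4 libraries for 50 of 53 members, and its partner was 1.98 times as high in the median, against 1.39 for the GS pair. Without that library the median difference was -0.14, and without WT 3 d replicate 2 it was 0.88. The same library had the lowest sum of microglial markers at 3 d (844 CPM against 1310, 1260 and 1540) and of monocyte markers (47.3 against 85.8, 93.6 and 155). For the 3 d interaction the median was 0.43, and it was 0.03 without WT 3 d replicate 1. E2f8 gave the largest interaction at 3 d, 1.68 ± 0.570 (95% interval 0.46 to 2.90, unadjusted p = 0.0104, adjusted p = 0.449). Its intact level was 0.748 and 0.770 CPM in WT and 0.376 and 0.308 in GS, and at 3 d 1.46 and 3.49 against 2.74 and 4.47.

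Ccnd2 (chr6:127125162-127152188), which encodes cyclin D2, came closest to a difference between genotypes. WT libraries held 80.3 and 81.0 CPM when intact, 94.3 and 94.6 at 6 h, 111 and 114 at 3 d, and 110 and 121 at 15 d. GS libraries held 77.7 and 90.9, 61.7 and 68.2, 98.3 and 108, and 102 and 105. At 6 h both GS libraries lay below both WT libraries and below both intact ones, whereas the WT libraries at 6 h lay above intact. Ccnd2 fell by 0.38 at 6 h in GS (± 0.0812, adjusted p = 0.00774), the one member that fell at that stage. That call was lost without GS intact replicate 2 or GS 6 h replicate 1. At 3 d it rose by 0.48 ± 0.0808 in WT and 0.29 ± 0.0807 in GS.

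The 6 h difference of GS minus WT in Ccnd2 was -0.54 ± 0.0812 (95% interval -0.71 to -0.37, unadjusted p = 9.43e-06), and it missed the threshold over all genes with an edgeR adjusted p of 0.0591. It passed with DESeq2 (adjusted p = 1.50e-05), with the replicate number as a block (0.0123), in a fit of the groups compared alone (0.00741) and without GS intact replicate 1 (0.0350) or 2 (0.0432), and over all alternatives the adjusted p reached 0.626, without GS 6 h replicate 1. The difference was in the same direction under each of those alternatives. The interaction at 6 h was -0.60 ± 0.115 (adjusted p = 0.186, 0.00106 with DESeq2, and 0.0389 without GS intact replicate 1). Ccnd2 overlaps the noncoding gene 9330179D12Rik.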

How the data were processed

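Libraries were made from striatal RNA (RNeasy extraction and TruSeq preparation, per the labels' protocols), 2 for each of 8 groups. The authors deposited raw read counts per gene, and the submitters' processing notes name FastQC 0.11.7 and the mm10 build. No source used here names an aligner or a counting tool, or says whether strand was used. Every gene of the table has at least 1 count in every library, so genes with lower counts are outside it.

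Counts were fitted with edgeR 4.0.16 (R 4.3.3): TMM normalisation, filterByExpr by group, glmQLFit and glmQLFTest on all 16 libraries with 8 residual degrees of freedom, and Benjamini-Hochberg adjustment over 18813 genes at 0.05. The scripts were tested on simulated data. Alternatives were RLE size factors, no filter, a stricter filter, DESeq2 1.42.0, limma-voom (limma 3.58.1), a replicate block, the compared groups alone and each library left out. Leaving out the 3 WT libraries highest in cortical markers was chosen after seeing the data. The biological coefficient of variation was 10.1%. Replicates differed by more than counting noise, with a chi-square of 9.72 to 32.6 per degree of freedom.

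The members and lists were chosen with earlier results of these data known. Values per library are given for a set list of well-known members, for the members of each role with the largest and smallest change at 3 d in WT, and for members that moved against the rest. Of each pathway list, up to 2 genes in each direction were named, those with the largest change at 3 d in WT among called genes averaging 1 CPM or more. Marker lists are given mostly by summed CPM, and some also by counts called at 3 d. Exon lengths came from the GENCODE basic annotation (GRCm38). Overlaps and promoters came from RefSeq tables (GRCm38.p6), and 17 members overlap another gene of the table.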

Additional observations from a re-analysis of the deposited data

How the results depend on the processing

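No estimate changed sign among 7459 values recomputed under the alternatives, though calls were lost in some of them. These values cover only members called in a comparison, and Ccnd2 between genotypes, so steady signs were likely from the start. Estimates that did not pass were not followed. The median GS minus WT difference at 3 d, where no member passed, did change sign without WT 3 d replicate 1. At 3 d 43 of 48 WT calls and all 50 GS calls passed in every alternative that kept both replicates of each group or left out the 3 WT libraries high in cortical markers. The 6 h and the 15 d against 3 d counts depended most on the processing. At 6 h the WT count of 4 was 2 with no filter, 8 with DESeq2, 0 with limma-voom, 10 with the replicate block, 9 in the compared groups alone and 0 without the 3 WT libraries. The GS count of 13 at 6 h was 3 with limma-voom and 26 in the compared groups alone. At 15 d the WT count of 33 was 15 without the 3 WT libraries. From 3 d to 15 d the WT count of 10 was 4 with no filter, 19 with DESeq2, 4 with limma-voom, 21 with the block, 0 in the compared groups alone and 0 without the 3 WT libraries. The GS count of 21 was 11 with no filter and 13 without those libraries. Between genotypes the 6 h count of 0 was 1 with DESeq2, with the block and in the compared groups alone, and DESeq2 gave 1 for the average and 1 for the 6 h interaction. The cause was not tested.

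With each library left out in turn, counts against intact ranged from 0 to 10 (WT 6 h), 39 to 49 (WT 3 d), 16 to 40 (WT 15 d), 1 to 21 (GS 6 h), 45 to 50 (GS 3 d) and 29 to 41 (GS 15 d). From 6 h to 3 d they ranged from 26 to 46 (WT) and 39 to 47 (GS), and from 3 d to 15 d from 0 to 26 (WT) and 0 to 33 (GS). The genotype difference at 6 h and the 6 h interaction ranged from 0 to 1, and the other genotype counts stayed at 0. In each such fit the lone library is assumed to vary like the other groups.

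Over all genes tested, same-numbered replicates did not deviate together (correlation -0.10 to 0.17 over 28 pairs of groups, 3 of them over 0.1). The block therefore used a shared number only. Summed over the members, however, replicate 2 was the higher library in every group. Examples are 317 and 333 CPM in intact GS and 585 and 890 in WT at 3 d. The cause of this was not tested. The genotype difference averaged over stages uses all libraries, so a fit of the compared groups alone was not run for it. Depth limits the folds of Cdk1, Bub1 and E2f7, which fell to 6 reads in a library.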
